A study of Mus musculus with 797 samples.

Results

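Glutamatergic nuclei, which transcribe the vesicular glutamate transporter Slc17a7, were compared with GABAergic nuclei, which transcribe the GABA-synthesising enzymes Gad1 and Gad2, over all other genes in single nuclei sorted from mouse brain. A nucleus was placed on the glutamatergic side where Slc17a7 reached 10 CPM (reads of the gene after scaling a nucleus to 1000000 gene reads) and the sum of Gad1 and Gad2 stayed under 10 CPM, and on the GABAergic side where the sum reached 10 CPM and Slc17a7 stayed under it. Sides were thus chosen by the levels of these 3 genes, whose values describe the choice and are no finding. The libraries carry 3 name prefixes, called sets A, C and B here. Set A, the main set, gave 243 glutamatergic and 219 GABAergic nuclei, 462 of the 797 labelled nuclei of the series. Set C gave 44 glutamatergic and 33 GABAergic nuclei, and set B gave 98 glutamatergic and 58 GABAergic nuclei.

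All nuclei came from C57Bl/6J mice injected as young adults with 5e11 vector genomes of a single recombinant adeno-associated virus packaged in PHP.eB, a capsid that enters the brain from the blood. The virus drove a nuclear yellow fluorescent protein, H2B-SYFP2, from 1 of 20 enhancers or promoters, and fluorescent nuclei were sorted 3 to 4 weeks later. Neither side had an untreated counterpart: both consist of virus-transduced, reporter-bright nuclei, pooled over vectors. Each nucleus made 1 full-length SMART-Seq v4 library. No animal is named in the labels, so each side is 1 sample per set, nuclei are not replicates, and differences are given by size alone, without p-values. SDs are over nuclei, and exact 95% intervals on shares cover counting error only.

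As background, glutamatergic neurons of the cortex are excitatory projection cells that load transmitter with Slc17a7 and carry spiny dendrites rich in calcium/calmodulin-dependent signalling proteins. GABAergic interneurons are inhibitory and mostly local. Many derive from the medial ganglionic eminence, where Dlx, Lhx6, Sox6 and Maf family factors act, and a large group of them, the fast-spiking Pvalb cells, fire at high rates with Kv3 potassium channels. The striatum, the labelled tissue, is built mainly of GABAergic spiny projection neurons with dopamine receptors.

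The markers did not match that tissue label throughout. Of 18 listed spiny projection genes, 14 had a read in some glutamatergic nucleus and 13 in some GABAergic nucleus of set A, and the median summed level was 584 CPM in glutamatergic and 558 CPM in GABAergic nuclei. Only Foxp1, Pde10a and Tac1 were read widely enough to be compared, with Pde10a in 73.7% of glutamatergic and 69.4% of GABAergic nuclei. Of the receptors and factors that define the cells, Adora2a and Isl1 were not read in any nucleus of either side of set A. Drd1 was read in 2.88% of glutamatergic and 7.76% of GABAergic nuclei, and Drd2 in no glutamatergic nucleus and 0.457% of GABAergic nuclei. The cortical projection neuron factors Neurod6 and Tbr1 were read in 44.4% and 30.9% of glutamatergic nuclei, against 1.83% and 2.74% of GABAergic nuclei. At least 1 of Lhx6, Sox6 and Maf was read in 13 of 243 glutamatergic nuclei (5.35%, interval 2.88 to 8.97) and in 203 of 219 GABAergic nuclei (92.7%, 88.4 to 95.8). The nuclei are therefore called by their transmitter genes and not by striatal cell types.

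Depth was similar on both sides. Glutamatergic nuclei of set A had 59683 to 502340 reads (median 299316) and GABAergic nuclei 105258 to 590597 (median 332609). At an equal depth of 100000 reads, glutamatergic nuclei held a median of 2480 genes (SD 412, n = 241) and GABAergic nuclei 2803 (SD 542, n = 219), and the order was the same in set C (2467.5 and 2630) and set B (3090.5 and 3590). Set B stood apart in mitochondrial reads, which passed 1% of all reads in 34 glutamatergic and 26 GABAergic nuclei, against none in sets A and C. No glutamatergic nucleus lay between 10 and 50 CPM of Slc17a7: the lowest had 62.4 CPM, and the highest value under the threshold was 8.68 CPM. Of the GABAergic nuclei 3 lay between 10 and 50 CPM, the lowest at 10.7 CPM, and the highest value under the threshold was 9.17 CPM. Astrocyte, oligodendrocyte, precursor, microglial and vascular marker lists each had a median summed level of 0 CPM on both sides, and the astrocyte channel Aqp4 was not read on either. Vector and side moved together in set A: in 15 of the 20 vector labels at least 90% of the classified nuclei lay on 1 side. Not every label kept its side in the other sets. CMV had 1 glutamatergic and 19 GABAergic nuclei in set A, and 12 and 1 in set C. AiE0447h had 27 and 1 in set A, and 0 and 7 in set B. AiE0401h kept its side, with 21 and 0 in set A and 15 and 0 in set B. Only 4 labels (AiE0410m, AiE0452h, AiE0743m_3xC2 and DLX2.0) held at least 5 nuclei of each side in set A. A difference within these labels is given below where a called gene named there changed sign.

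Many genes differed between the sides, and more of them were higher in GABAergic nuclei. A gene was tested for size where it was read in at least 10% of nuclei, averaged over the sides, and called where its mean log2(CPM + 1) differed by more than 1. Of 8471 such genes in set A, 600 (7.08%) were higher in glutamatergic nuclei and 1107 (13.1%) were higher in GABAergic nuclei. Set C called 1016 of 8133 genes (12.5%) as higher and 1485 (18.3%) as lower in glutamatergic nuclei, and set B 892 of 10412 (8.57%) and 1433 (13.8%). The median difference of the genes tested was -0.21 in set A, so the sides were not centred on each other; after centring on that median, 783 genes were higher and 766 lower. Glutamatergic calls thus made up 35.1% of the calls as measured, 50.5% after centring, and 46.0% with reads summed over each side (705 higher and 829 lower).

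Genes called in set A mostly kept their sign in the other sets. Of the 600 genes higher in glutamatergic nuclei, 581 had the same sign in set C and 584 in set B. Of the 1107 lower genes, 1014 and 1030 did. In all 3 sets at once, 383 genes (4.52% of those tested) were higher and 448 (5.29%) were lower by more than 1. Averaged over differences within the 4 mixed vector labels, 591 of the 600 and 1082 of the 1107 kept their sign, and 470 and 842 stayed past 1. The nuclei of these labels are part of set A, on which the genes were called, so this is no independent repeat. In every one of the 4 labels at once, 351 of the 600 and 614 of the 1107 kept their sign. Large differences were few: 79 genes were higher and 57 lower by more than 3, and 7 and 9 by more than 5. Few genes were near exclusive to a side: 14 genes were read in at least 50% of glutamatergic and under 10% of GABAergic nuclei, and 14 in the reverse pattern.

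**Figure D1:**
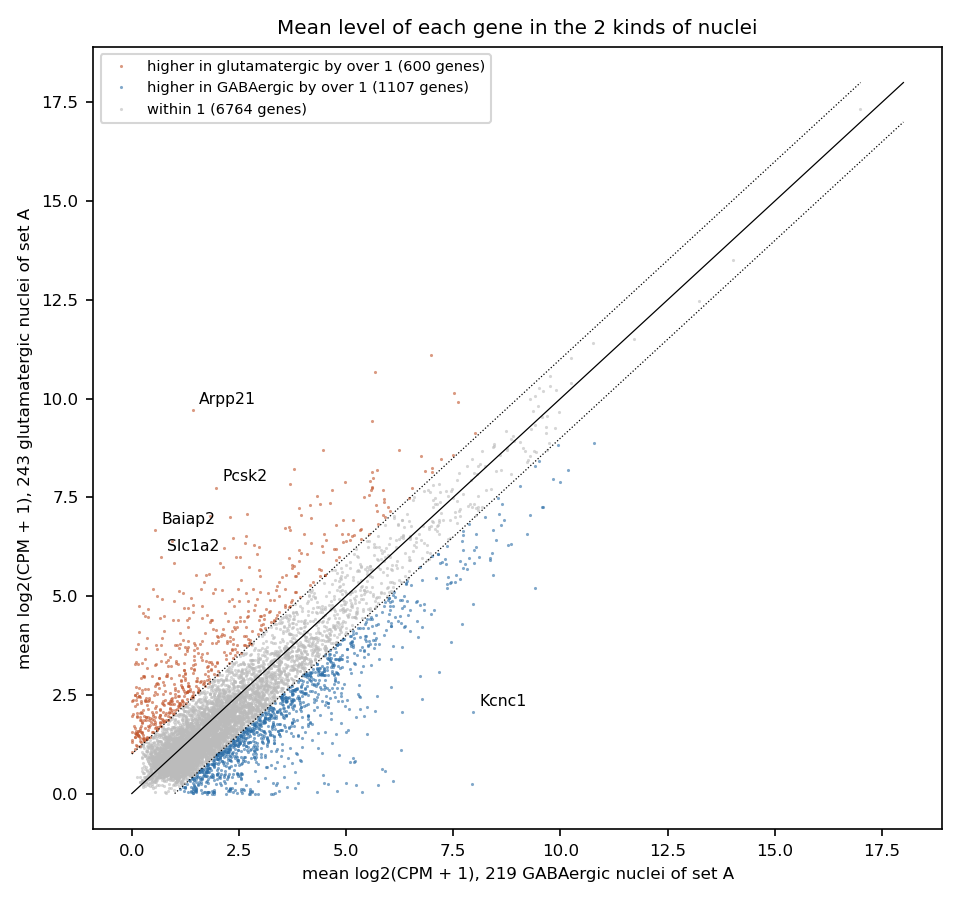
Mean log2(CPM + 1) of each of 8471 genes in 243 glutamatergic nuclei (vertical) and 219 GABAergic nuclei (horizontal) of set A. The solid line marks equal means and the dotted lines a difference of 1; Arpp21, Baiap2, Pcsk2 and Slc1a2 lie far above them, and Kcnc1 far below.

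The genes that led the glutamatergic side had varied roles. The largest difference was that of Arpp21, a cyclic AMP-regulated phosphoprotein, which lies at chr9:112065091-112235938 on the minus strand (mm10). Its level ran over 0, 1236 and 6589 CPM (lowest, median, highest) in glutamatergic nuclei, against 0, 0 and 1584 CPM in GABAergic nuclei. The median glutamatergic nucleus was thus below the highest GABAergic one, so the sides overlapped although most GABAergic nuclei had no read: Arpp21 was read in 234 of 243 glutamatergic nuclei (96.3%, interval 93.1 to 98.3) and 41 of 219 GABAergic nuclei (18.7%, 13.8 to 24.5). Mean log2(CPM + 1) was 9.71 (SD 2.33) on the glutamatergic and 1.43 (SD 3.08) on the GABAergic side, a difference of 8.28, with 9.75 in set C and 8.95 in set B.

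Baiap2, an actin regulator of the postsynaptic density (chr11:119942763-120006782, plus strand), reached 0, 312 and 2158 CPM in glutamatergic nuclei, against 0, 0 and 633 CPM in GABAergic nuclei. Its difference was 6.13 in set A, and it was read in 80.7% of glutamatergic and 6.85% of GABAergic nuclei. Pcsk2, the prohormone convertase that matures neuropeptides, reached 0, 283 and 1924 CPM against 0, 0 and 1000 CPM in GABAergic nuclei, with a difference of 5.78. It was more widely shared, being read in 96.3% of glutamatergic and 31.1% of GABAergic nuclei.

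Slc1a2, the glutamate uptake carrier best known from astrocytes, was read in 74.9% of glutamatergic and 9.59% of GABAergic nuclei (difference 5.30). Of 12 listed astrocyte genes 10 had a read in some nucleus of each side; Aqp4 had none, and Slc1a3 was read in 14 of 243 glutamatergic and 21 of 219 GABAergic nuclei. Their part in the Slc1a2 reads was not tested. Ptprd, a receptor phosphatase that organises synapses, had 0, 1734 and 5958 CPM in glutamatergic nuclei, against 0, 134 and 2269 CPM in GABAergic nuclei. It differed in amount more than in presence: it was read in 99.6% of glutamatergic and still in 74.4% of GABAergic nuclei, with a difference of 5.02. The remaining leading genes were Psd3 (5.44), an exchange factor for Arf6, the synaptic scaffold Dlg1 (5.20), the Ras activator Rasgrp1 (4.85), the membrane protein Ano3 (4.70), the activity-regulated gene Arc (4.70), the secreted protein gene Fam19a1 (4.57), the phosphatase inhibitor Arpp19 (4.44), the kinase Mast3 (4.42), the long noncoding RNA Miat (4.40) and the vesicle protein Sv2b (4.31). Exons of Arpp21, Pcsk2, Psd3, Slc1a2, Ptprd, Ano3, Miat and Sv2b overlap annotated genes on the other strand, and as the strand setting of the counting is not given in the sources used here, reads of the 2 strands cannot be told apart there.

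Fast potassium channels and interneuron lineage genes were among those that led the GABAergic side. Kcnc1, which encodes the Kv3.1 channel of fast-spiking cells (chr7:46396497-46438704, plus strand), had 0, 0 and 1055 CPM in glutamatergic nuclei, against 0, 537 and 2963 CPM in GABAergic nuclei. It was not absent from glutamatergic nuclei, 28.4% of which had a read, against 87.7% of GABAergic nuclei, and the difference was -5.90. Maf, a transcription factor of interneurons from the medial ganglionic eminence, was read in 4.94% of glutamatergic and 86.3% of GABAergic nuclei (difference -5.77). Erbb4, the neuregulin receptor, had the lowest share on the other side of the 30 leading genes, with a read in 1 of 243 glutamatergic nuclei and in 147 of 219 GABAergic nuclei (67.1%), and a difference of -5.33.

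Nxph1 (-5.53), a secreted ligand of neurexins, was read in 2.47% of glutamatergic and 63.9% of GABAergic nuclei. Pvalb (-4.72), the calcium buffer that names a class of interneurons, was read in 0.823% of glutamatergic and 55.7% of GABAergic nuclei. Further leading genes were the vesicle GTPase Rab3b (-5.34), the Notch ligand-like receptor Dner (-5.22), the actomyosin regulator Limch1 (-5.18), Kcnip1 (-5.01), an accessory subunit of Kv4 channels, the glycosyltransferase-like gene Galntl6 (-4.73), the coronin Coro6 (-4.40), the axonal adhesion molecule Cntnap2 (-4.38), the Kv3.2 gene Kcnc2 (-4.38) and the actin-binding gene Afap1 (-4.33). Exons of Maf, Rab3b and Galntl6 overlap genes on the other strand.

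All 30 leading genes, the 15 of each direction, kept their sign within each of the 4 mixed vector labels. Among the 15 higher genes these within-label differences ran between 1.27 (Ano3 in DLX2.0 nuclei) and 9.79 (Arpp21 in AiE0743m_3xC2 nuclei). The lowest mean of any vector label with at least 3 glutamatergic nuclei was above the highest mean of any label with at least 3 GABAergic nuclei for all 15, and the reverse held for all 15 lower genes. Since these genes were picked for differences in sets A, C and B, their separation describes the choice. Each of the 30 was at 0 CPM in some nucleus of its own side.

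**Figure D2:**
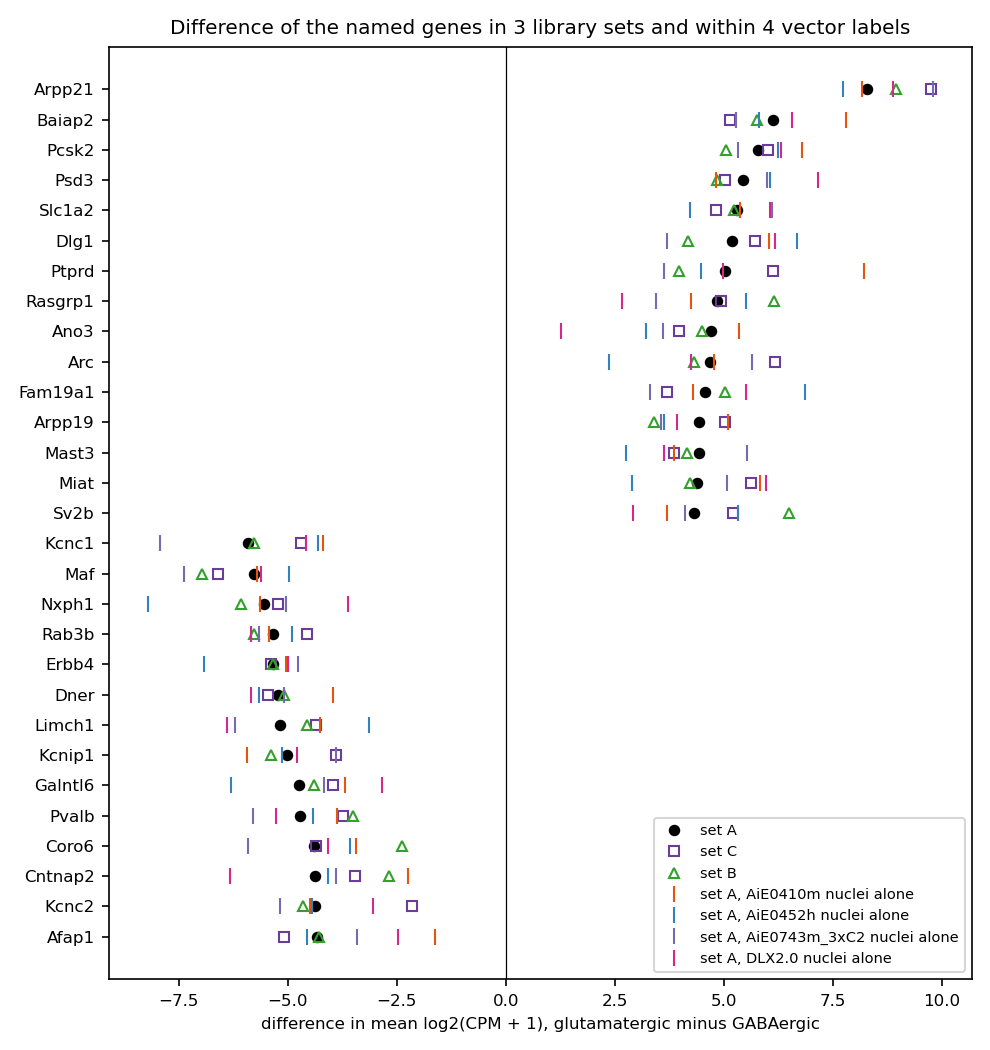
Difference in mean log2(CPM + 1), glutamatergic minus GABAergic, for the leading genes of each direction (rows). Filled circles are set A, squares set C, triangles set B and ticks the differences within each of 4 vector labels of set A; every symbol lies on the same side of 0 as the set A value.

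The 30 genes were chosen on these same nuclei in all 3 sets, so how many of them a nucleus had reads for describes the choice and tests nothing, in sets C and B as in set A. Glutamatergic nuclei of set A had reads of 1, 12 and 15 (lowest, median, highest) of the 15 glutamatergic-side genes and of 0, 1 and 6 of the 15 GABAergic-side genes. GABAergic nuclei had 0, 3 and 9 of the first and 4, 11 and 15 of the second. More glutamatergic-side than GABAergic-side genes were read in 242 of 243 glutamatergic nuclei and in 1 of 219 GABAergic nuclei. In set C this held for 44 of 44 and 0 of 33 nuclei, and in set B for 98 of 98 and 0 of 58.

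**Figure D3:**
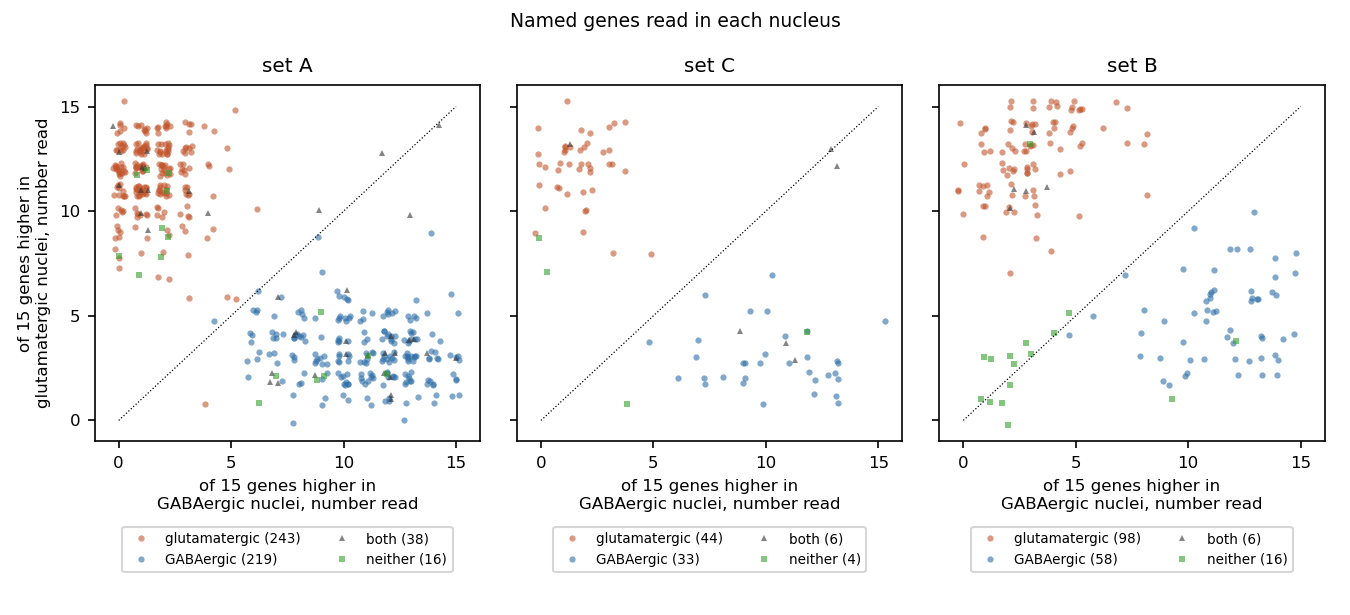
Number of the 15 glutamatergic-side genes (vertical) and of the 15 GABAergic-side genes (horizontal) with a read in each nucleus, by library set, with points jittered. Glutamatergic nuclei gather above the dotted line of equal numbers and GABAergic nuclei below it, while nuclei with both or neither of the class genes scatter over both areas.

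The 250 bases before annotated starts were searched on both strands for 4 short motifs: CAGATG, an E-box that Neurod-type factors bind, CAGCTG, another E-box, the homeodomain core TAATTA, and the cyclic AMP response element TGACGTCA. RefSeq windows (GRCm38.p6) were at hand for 25 of the 30 leading genes. CAGCTG was found before a start of 3 of 12 glutamatergic-side genes and 2 of 13 GABAergic-side genes, CAGATG before 1 and 3, and TAATTA and TGACGTCA before none. Over 27025 genes in the RefSeq table, counting 1 window a gene, 12.8% held CAGCTG, 14.5% CAGATG, 4.90% TAATTA and 1.62% TGACGTCA. Some named genes have several windows, so their counts are not on the same footing as these shares. Windows matched only 79.2% of the genes tested, under the 80% needed, so a comparison of promoter motifs over all called genes is void and not given. The windows below are shown because they hold a motif, in capitals, before leading genes of both sides, and no exon of the gene lies in them. For Arpp21 the start is 1 of several, inside the gene (chr9:112217352-112217601, minus strand). Those of Pcsk2 (chr2:143545883-143546132, plus strand) and Kcnc2 (chr10:112270871-112271120, plus strand) lie at or near the gene's 5′ end. CAGCTG begins 91, 135 and 10 bases before the start.
Arpp21: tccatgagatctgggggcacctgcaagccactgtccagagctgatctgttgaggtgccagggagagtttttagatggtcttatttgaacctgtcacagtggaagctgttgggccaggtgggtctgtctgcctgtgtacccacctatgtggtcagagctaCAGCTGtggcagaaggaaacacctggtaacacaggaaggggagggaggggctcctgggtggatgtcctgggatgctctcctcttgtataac
Pcsk2: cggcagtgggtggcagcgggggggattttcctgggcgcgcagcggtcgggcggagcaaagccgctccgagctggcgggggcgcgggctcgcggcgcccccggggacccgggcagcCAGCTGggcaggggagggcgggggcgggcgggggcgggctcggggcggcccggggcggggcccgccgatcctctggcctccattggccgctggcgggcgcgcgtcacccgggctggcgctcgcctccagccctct
Kcnc2: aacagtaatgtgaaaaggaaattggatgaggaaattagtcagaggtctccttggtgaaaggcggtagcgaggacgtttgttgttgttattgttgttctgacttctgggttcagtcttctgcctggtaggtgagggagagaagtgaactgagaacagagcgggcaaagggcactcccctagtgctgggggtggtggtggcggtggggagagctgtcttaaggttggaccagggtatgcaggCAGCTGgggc
The same letters thus stand before genes of opposite direction, and the Pcsk2 window is 82.4% G and C, against 54.8% for Arpp21 and 52.8% for Kcnc2. A match is a description of the letters and not a site.

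Lists of genes of known role were counted next, against the backgrounds of 7.08% higher and 13.1% lower. Of the 25 glutamatergic identity genes 17 were read widely enough to be tested, and 13 of them were higher and none lower in glutamatergic nuclei, 12 in all 3 sets. The median difference was 2.14 over the 17 and 1.13 over all 25 listed. The filter keeps a gene through the side where it is high, so the medians of the genes tested are the larger ones. Beside Arpp21 and Sv2b, the calmodulin-binding protein Nrgn (4.24) and the factor Neurod6 (3.64) were furthest. Nrgn was read in 99.2% of glutamatergic and also in 68.0% of GABAergic nuclei. The deep-layer genes Tle4 (0.13) and Bcl11b (-0.57) did not reach the limit, and Bcl11b was read in 16% of glutamatergic and 28.3% of GABAergic nuclei. Within AiE0452h nuclei Tbr1 was at -0.11, so that factor did not keep its sign in every mixed label. Of 26 tested GABAergic identity genes 24 were lower in glutamatergic nuclei, in all 3 sets, with a median of -2.94 over the 26 and -1.88 over all 37 listed. These include Sox6 (-4.29) and Dlx1 (-3.37), factors of interneuron development, and the peptide gene Npy (-3.99). Of the other 2, Cnr1, a cannabinoid receptor, was within the limit (-0.62), and the higher one was Lamp5 (2.82), a gene of an interneuron class that upper-layer cortical projection neurons also use, read in 49.0% of glutamatergic and 16.9% of GABAergic nuclei. Both identity lists were drawn from what is known of these classes, so their direction describes the classes.

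Many calcium/calmodulin kinase, phosphatase and postsynaptic signalling genes were higher in glutamatergic nuclei. Of 30 tested 14 (46.7%) were higher and 1 lower, 13 and 0 in all 3 sets, and the list median was 0.98 against -0.21 over all genes tested. Homer1 (4.04), a scaffold of glutamate receptors, Camk2a (3.11), the alpha subunit of the abundant kinase of spines, Itpka (2.67) and the calcineurin subunit Ppp3ca (2.52) led after Baiap2, Arc and Nrgn. Nrgn, Camk2a and Itpka are also on the glutamatergic identity list, and Baiap2 and Arc are also leading genes. Their calls are thus counted there too, and those of Nrgn, Camk2a and Itpka describe the classes. This list was chosen with earlier results of these data known, and it was not counted without these genes. Kinase subunits differed in direction. Camk2a was read in 68.7% of glutamatergic and 28.3% of GABAergic nuclei, while Camk2d was the lower gene (-1.25), read in 45.3% of glutamatergic and 63.9% of GABAergic nuclei. Camk2d did not pass the limit in sets C (-0.77) and B (-0.72), and within AiE0410m nuclei it stood at 1.62. Shank1 (0.26) and Dlgap1 (0.17), scaffolds of the postsynaptic density, were read in over 90% of both sides.

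Immediate early genes, which follow neuronal activity, were higher or within the limit in glutamatergic nuclei and none was lower. Of 12 tested 8 (66.7%) were higher, all 8 in all 3 sets, with a median of 1.98 over the 12 and 0.85 over all 20 listed. Arc is also a leading gene and on the calcium/calmodulin and postsynaptic list, so its call is counted there too. It had 0, 213 and 3299 CPM in glutamatergic nuclei, against 0, 0 and 1194 CPM in GABAergic nuclei. Nr4a1 (3.48), Egr1 (3.19) and Egr3 (2.61) followed, and Fos differed less (1.32), with reads in 32.5% of glutamatergic and 17.4% of GABAergic nuclei. The summed level of all 20 listed genes had a median of 1889 CPM in glutamatergic and 368 CPM in GABAergic nuclei, but its ranges (0 to 13419 and 0 to 12903 CPM) covered each other. The brains' activity state before sorting is not given in the labels.

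Potassium channel genes were called in both directions, more often as higher in glutamatergic nuclei. Of 33 tested 13 (39.4%) were higher and 10 (30.3%) lower in glutamatergic nuclei, 12 and 5 in all 3 sets. Set C called 15 of the listed genes as higher and 6 as lower, and set B 17 and 8. On the glutamatergic side stood Kcnv1 (3.23), a potassium channel subunit that is silent on its own, and Kcnip3 (3.13), a calcium-binding channel partner. Kcnv1 was read in 39.5% of glutamatergic and 1.37% of GABAergic nuclei, and Kcnip3 in 43.2% of glutamatergic and 2.74% of GABAergic nuclei. The GABAergic side held both Kv3 genes, Kcnip1 and Kcnmb2 (-2.87), an inactivating subunit of BK channels read in no glutamatergic and 41.1% of GABAergic nuclei. Kcnip genes therefore lay on both sides of the list. Kcnv1 is also on the glutamatergic identity list, so its call is counted there too. Within AiE0452h nuclei Kcnv1 stood at -0.37, against the pooled sign.

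Among 20 tested sodium, calcium and HCN channel genes 6 (30%) were higher and 3 (15%) lower, the lower share being near the 13.1% of all genes tested. In all 3 sets 2 were higher and 3 lower, and set B called 3 of the listed genes as higher and 4 as lower. The accessory subunits of calcium channels were opposed: Cacna2d1 (4.24) was read in 67.1% of glutamatergic and 10.5% of GABAergic nuclei, and Cacna2d2 (-2.73) in 1.65% of glutamatergic and 46.6% of GABAergic nuclei. Cacna1e (3.79), the R-type calcium channel, was higher. Scn1a (-1.89), the sodium channel of interneurons, and Scn2a (1.35) also pointed apart, though Scn2a was 0.73 in set B and so under the limit there. Within DLX2.0 nuclei Scn1a was at 0.57, against the pooled sign.

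Genes of ionotropic glutamate receptors and their auxiliary subunits were lower in glutamatergic nuclei more often than higher. This did not hold after centring on the median of all genes, which gave 4 higher and 4 lower. The counts were also close within vector labels (6 and 7) and with a pseudocount of 10 (1 and 2). Of 22 tested genes of this list 3 (13.6%) were higher and 8 (36.4%) lower in glutamatergic nuclei, and all 8 lower ones repeated in sets C and B. The kainate receptor Grik1 (-3.39) was read in 13.6% of glutamatergic and 57.5% of GABAergic nuclei, and Gria1 (-2.72) in 57.6% of glutamatergic and 81.7% of GABAergic nuclei, while Cacng3 (1.76), an AMPA receptor partner, was higher, though not within AiE0743m_3xC2 nuclei (-0.68). Gria2 (0.78) and Grin2b (0.70) were read in at least 99% of both sides. Of 15 tested GABA receptor and scaffold genes 3 (20%) were higher and 2 (13.3%) lower, the lower share being near the 13.1% of all genes tested. Gabra2 (2.75) and Gabrb1 (2.59) were higher, with reads in 45.7% and 58.4% of glutamatergic and 11% and 30.6% of GABAergic nuclei. Gabrg3 (-3.44), a gamma subunit, was lower.

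Release machinery held genes of both directions. Of 28 tested genes 7 were higher and 8 lower in glutamatergic nuclei. Stx1a (3.87), a plasma membrane SNARE protein, was read in 61.3% of glutamatergic and 13.7% of GABAergic nuclei, and the calcium sensor Syt7 (3.24) in 73.7% of glutamatergic and 33.8% of GABAergic nuclei. Sv2b stood 4.31 higher and its relative Sv2a (-2.55) lower. Sv2b is also a leading gene and on the glutamatergic identity list, so its call is counted there too. Cplx1 (-3.45), a complexin, and Rab3b marked the GABAergic side. Snap25 (0.66) and Syt1 (0.61), core proteins of release, were read in at least 98% of the nuclei of both sides.

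Of 32 tested adhesion and axon guidance genes 9 (28.1%) were higher and 11 (34.4%) lower. Pcdh9 (3.16), Slit3 (2.54) and Epha4 (2.53) were higher. Cntnap4 (-3.61), an interneuron member of the contactin-associated family, and Cdh13 (-2.96) were lower beside Nxph1. Only 7 of the 16 matrix genes could be tested. Bcan (-3.11), the proteoglycan brevican, was read in 3.70% of glutamatergic and 45.2% of GABAergic nuclei, and Col19a1 (-3.84), a collagen, in 14.8% of glutamatergic and 65.8% of GABAergic nuclei, while Ncan (1.12) was higher, though not within AiE0410m (-0.35) and AiE0743m_3xC2 nuclei (-0.03). On the list of long noncoding RNAs and RNA-binding splicing regulators 9 of 24 were higher and 7 lower. Khdrbs2 (4.29), a splicing regulator of neurexins, was read in 61.7% of glutamatergic and 5.02% of GABAergic nuclei, and Elavl2 (-3.98) in 21% of glutamatergic and 68.5% of GABAergic nuclei. Foxp1 (3.76), a forkhead factor of projection neurons, was the largest difference on the spiny projection list. Exons of Foxp1 overlap a gene on the same strand. Those of Dlx1, Shank1, Dlgap1, Cacna2d2, Grin2b, Gabrb1, Syt7 and Cntnap4, above, and of Ttc14, below, overlap genes on the other strand.

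Nuclear-encoded genes of oxidative phosphorylation were lower in glutamatergic nuclei as a group. Of 24 tested 20 (83.3%) were lower and none higher, with a list median of -1.34, and 8 were lower by more than 1 in all 3 sets. Atp5b (-2.33), a subunit of ATP synthase, was read in 76.1% of glutamatergic and 94.5% of GABAergic nuclei, and Atp5g3 (-2.41) in 69.1% of glutamatergic and 92.2% of GABAergic nuclei. Ppargc1a (-1.77), the coactivator of mitochondrial biogenesis, was read in 11.9% of glutamatergic and 36.5% of GABAergic nuclei, and stayed within the limit in set C (-0.58). The summed level of the 24 genes had a median of 4144 CPM (728 to 12776) in glutamatergic nuclei and 7103 CPM (2247 to 17073) in GABAergic nuclei, with wide overlap. The call depends on the scale: with reads summed over each side in place of means over nuclei, 2 of 24 passed the limit, with a pseudocount of 10 it was 9, and after centring on the median of all genes 15. In nuclei of both sides with 2500 to 3500 genes read, a range chosen after seeing the data, 18 passed it. GABAergic nuclei held more genes per nucleus, and the part of that in these differences was not tested beyond this range.

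Of the cytosolic ribosomal protein genes, 0 of 30 tested were called in either direction in set A, with a list median of -0.31, beside -0.21 for all genes, while set C called 1 higher and 5 lower and set B 0 and 6. Of the 3 tested mitochondrially encoded genes none was called in sets A and C, and set B called 2 of the listed genes as lower. Pan-neuronal genes spread both ways, with 5 of 26 higher and 6 lower. Rbfox3 (2.37), whose protein is the nuclear marker NeuN, was higher in glutamatergic nuclei, and Lsamp (-4.09) and Rbfox1 (-2.22) lower. Rbfox3 was read in 65.4% of glutamatergic and 37.9% of GABAergic nuclei. Neither Rbfox gene kept its sign in every mixed label: Rbfox3 was at -0.46 within DLX2.0 nuclei and Rbfox1 at 0.73 within AiE0452h nuclei.

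**Figure D4:**
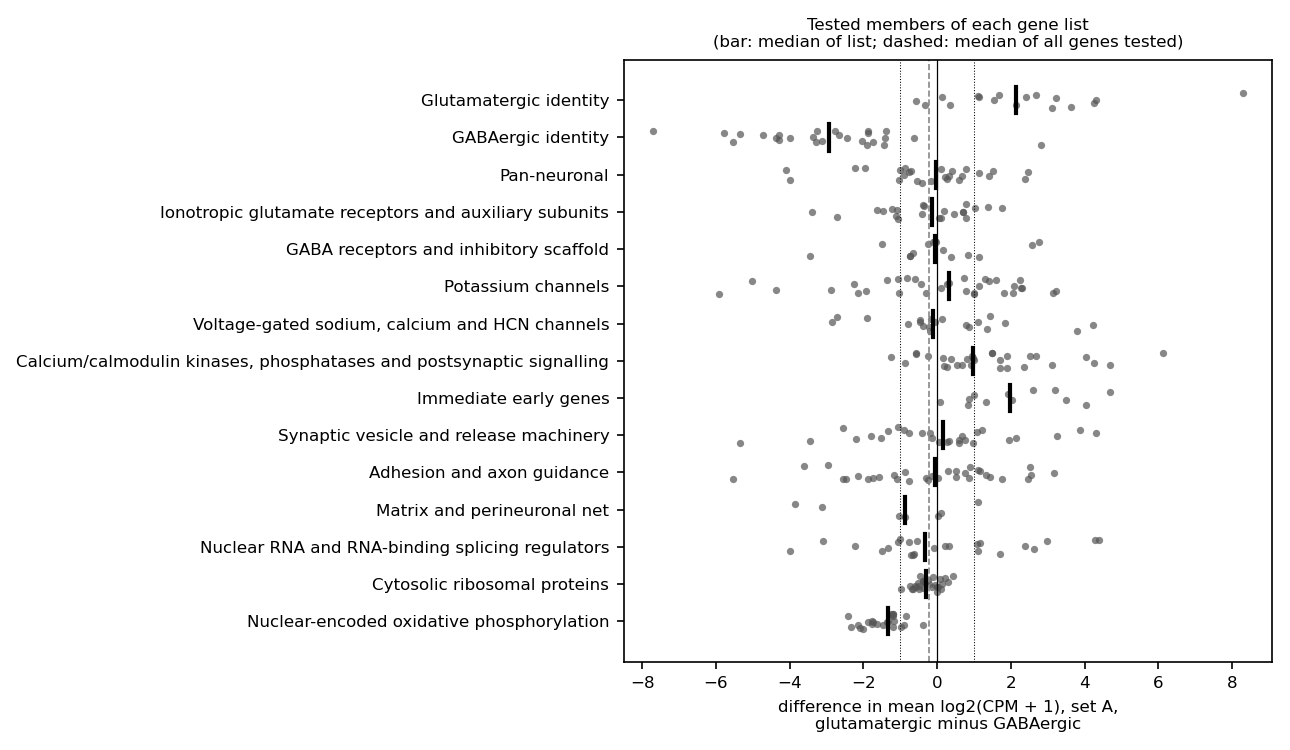
Difference in mean log2(CPM + 1) in set A, glutamatergic minus GABAergic, of each tested member (points, jittered vertically) of 15 gene lists. Bars are medians of the tested members, dotted lines the limits of 1 and -1 and the dashed line the median of all genes tested; oxidative phosphorylation genes lie left of 0 together, while channel, receptor, vesicle and adhesion genes lie on both sides.

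Some genes hardly differed. Of 67 genes read in at least 90% of both sides, 63 lay within 1 of 0. Closest were Ttc14 (-0.01), Mycbp2 (0.02), a ubiquitin ligase of axons, the splicing factors Srsf11 (0.02) and Rbm39 (-0.02), and the cyclin Ccnt2 (-0.02). Rbm39 averaged 9.54 (SD 1.89) in glutamatergic nuclei and 9.57 (SD 1.70) in GABAergic nuclei. Ttc14 was 1.20 higher in the 44 glutamatergic nuclei of set C than in the 33 GABAergic nuclei there, so closeness in set A did not always repeat.

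The longest genes were called most often in both directions. Of 600 genes higher in glutamatergic nuclei 39% span more than 100 kb in the annotation, as do 23.6% of the 1107 lower genes and 17.5% of all genes tested. The median span was 63.5 kb for the higher genes and 30.5 kb for the lower ones, against 28.8 kb for all. By length, 5.70% of the genes up to 10 kb were higher and 12.3% lower, while of the 401 genes over 300 kb 23.4% were higher and 20.7% lower. The median difference was -0.25 for genes up to 10 kb and 0.12 for genes over 300 kb in set A, -0.18 and 0.14 in set C, and -0.28 and 0.20 in set B. Whether intronic reads were counted is not given in the sources used here, and their part in this was not tested.

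**Figure D5:**
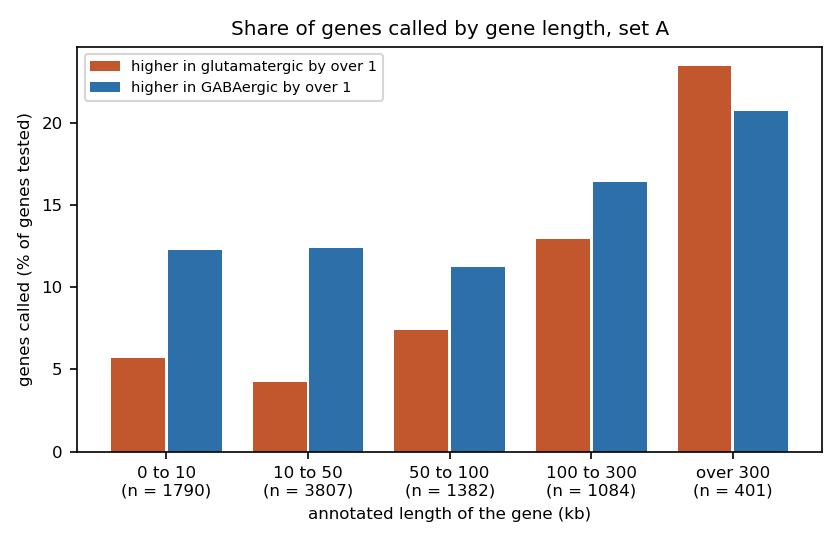
Share of the genes tested in set A that were higher in glutamatergic nuclei (left bars) or in GABAergic nuclei (right bars) by more than 1, by annotated gene length in kb. Over 300 kb the glutamatergic share is 23.4% and the GABAergic share 20.7%, against 5.70% and 12.3% up to 10 kb.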

How the data were processed

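Reads of 797 sorted nuclei, each a SMART-Seq v4 and Nextera XT library, were deposited as raw counts per gene, per the labels and the values. STAR 2.7.2a and mm10 are named in the submitters' processing notes. How reads were assigned to genes (counter, annotation, strand, introns) is not given in the sources used here. The deposited counts carry no molecular identifiers, so PCR copies are counted apart. The table holds 2501 columns, of which 1704 were not used here. Of 32285 rows, 32158 got a symbol by Ensembl identifier.

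Nuclei under 50000 reads or 1000 genes were left out (16), which left 781. Counts were scaled to CPM over gene reads, and log2(CPM + 1) was averaged over nuclei. To compare numbers of genes, each nucleus was thinned to 100000 reads with seed 0, and 5 shallower nuclei were left out. Shares carry exact Clopper-Pearson 95% intervals. No differential test was run, since no animal is named in the labels. Each library is 1 sorted nucleus per the labels, and no doublet caller was used. Nuclei with at least 10 CPM of both Slc17a7 and Gad1 plus Gad2 were left out. In set A 1 glutamatergic and 4 GABAergic nuclei had a read of the other class below that level and were kept. Doublets among the kept nuclei were not tested. No 2 nuclei had identical counts.

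Named genes are the 15 furthest in each direction in set A with a difference over 1 of the same sign in sets C and B, 2 to 4 members of each described list, the 5 closest to 0 among genes read in at least 90% of both sides, and the 5 largest whose sign was reversed by over 1 in another set. Some genes are counted but not reported here by name. Where a list's text names more members than 4, they were chosen after their values were seen. Members, lists and rules were chosen with earlier results of these data known. Gene positions are GENCODE vM21 on mm10, counted from 1. The steps were tested on simulated data. Python 3.11.15, numpy 2.4.6, pandas 2.3.3, scipy 1.17.1 and matplotlib 3.10.9 were used. Alternatives were tried for the threshold, pseudocount, filter, scaling, weighting of vectors, depth, library set and each vector label left out.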

Additional observations from a re-analysis of the deposited data

Results flagged for a closer look

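Of the kept nuclei of set A, 38 (7.36%) had at least 10 CPM of both Slc17a7 and Gad1 plus Gad2, and 16 (3.10%) had neither, and both kinds lay outside the comparison. Of the 38, 14 had reads of more glutamatergic-side than GABAergic-side named genes and 23 of fewer. Of the 16, 9 had more and 7 fewer. In set B 16 nuclei had neither class gene: the astrocyte channel Aqp4 was read in 8, against 0 of 98 glutamatergic and 1 of 58 GABAergic nuclei of that set.

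Of 13 genes past 1 in set A and past 1 the other way in set C or B, the 5 largest follow, and the change of sign was not tested. Atrip was 1.60 higher in glutamatergic nuclei of set A and -1.09 in set C. Fcho1 was 1.23 in set A and -1.08 in set C. Atp6v1h was -1.44 in set A and 1.15 in set C, Sirt2 -1.25 and 1.03, and Vwa5b2 -1.20 and 1.33. Set C holds 44 glutamatergic and 33 GABAergic nuclei, and exons of Atrip, Atp6v1h, Sirt2 and Vwa5b2 overlap another gene.

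Of the 30 leading genes, 2 had 1 of the 4 mixed vector labels far from the other labels. Kcnc1 differed by -7.93 in AiE0743m_3xC2 nuclei and Erbb4 by -6.91 in AiE0452h nuclei. Chance flags about 1 in 20 such groups.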

How the results depend on the processing

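The counts of 600 higher and 1107 lower genes stayed within 1.5 times of their value under most settings, with these exceptions. A pseudocount of 10 gave 290 and 369. Library set C called 1016 genes as higher in glutamatergic nuclei, and set B without nuclei over 1% mitochondrial reads called 932. Leaving out each of 20 vector labels gave 580 to 632 higher and 1052 to 1156 lower genes. Centring on the median gave 783 and 766. Centring, the range of genes read and the limit on mitochondrial reads were chosen after seeing the data. With reads summed over each side there were 705 and 829, and in nuclei with 2500 to 3500 genes read 773 and 1096. Within vector labels there were 840 and 1570 among the same genes tested, over few nuclei per label. None of 1020 values of the 30 leading genes under other settings reversed sign, and all stayed past 1. In sets C and B the choice of the genes fixed this. The sizes of these differences depended on the scale. A pseudocount of 10 made each of the 30 smaller. With reads summed over each side, those of Fam19a1, Sv2b, Erbb4, Pvalb and Afap1 were larger. The others, Arpp21 among them, were smaller. The sizes given for leading genes thus hold for means over nuclei and are not ratios of summed reads. Small list counts moved more: with a pseudocount of 10, 2 ionotropic glutamate receptor and auxiliary subunit genes were lower in place of 8, and with centring 4. Ribosomal protein genes lower in glutamatergic nuclei were 7 within vector labels, 5 in set C and 6 in set B, against 0 in set A. No paired analysis was possible because the replicate numbers only name nuclei; the nearest to one is the set of differences within the 4 mixed labels. Each side mixes vectors, and in set A most vectors lie on 1 side. No animal is named, so in set A vector, animal and transmitter class cannot be told apart outside the 4 mixed labels. In sets C and B some labels lay on the other side than in set A, or were mixed. No animal is named there either, and the part of vector or animal in those differences was not tested. Genes read in few nuclei are limited by depth, and a gene not read may still be transcribed.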
